A study of Solanum lycopersicum with 30 samples.

Results

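Watered tomato (Solanum lycopersicum) leaf was compared between T1 and T2, the times at which the controls of a drought and recovery experiment were taken. The members were the 12 watered libraries of these times among 30 libraries in all, 3 vein-enriched and 3 intervein libraries at T1 and 3 of each at T2, chosen by their labels. At both times each plant grew in 300 g of soil with 16 h of light a day, received 150 mL of water every other day, and had its leaf 4 cut into vein and intervein tissue. T1 was taken at 29 days after sowing and the first time point, T0, at 25 days. The labels do not settle how old the plants were at T2, since one protocol places it 3 days after the other plants were watered again and another describes waterings at 29 and 30 days followed by collection. The drought plants, used here for values beside those of the controls, had gone 6 days without water at T1 and others of them, watered again, were sampled as recovered plants at T2. Each group came from 3 plants and each plant gave both tissues, so the 12 libraries stand for 6 plants, and the plants at T1 and T2 were different ones.

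A leaf that has been watered throughout still changes as it expands and ages. Young leaf cells invest in growth and in building chloroplasts, and as a leaf passes maturity it moves carbon and nitrogen out through the veins, which hold the xylem and phloem, while the intervein tissue is mostly mesophyll, the cells that carry out photosynthesis. Leaf transcripts also follow the time of day, the water in the soil and the handling of the plant. A control sampled together with each treatment is the usual guard against reading such changes as a treatment effect, and a change between the controls of separate times shows how far that baseline itself moved. The sources used here give no hour of harvest and no soil water content, so their part in the values below was not tested.

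Total counts of the 12 libraries were 2718799 (intervein T2 1) to 13641845 (intervein T2 2), with 15167 to 20143 genes detected. The tissues kept their labels. A score of the genes that differed between tissues at T0 (mean log2 CPM, the count scaled to library size, of 699 vein-preferred genes minus that of 852 intervein-preferred genes) was 0.699 to 1.98 in the 6 vein libraries and -3.11 to -2.44 in the 6 intervein libraries. Among the other plants, the library labelled vein T2 recovered 2 scored -3.14 and the library labelled intervein T2 recovered 1 scored 0.488. Each was nearer the other tissue than its own, so comparisons with the recovered plants are also given without both. Vein T1 drought 2 scored -0.538, below the 1.24 and 1.08 of vein T1 drought 1 and 3, and it was kept in those comparisons. The deposited files pair the gene identifiers with no names, and 0 identifiers matched the reference table, so genes appear under their identifiers with no function.

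In a fit of the 12 libraries as separate samples, genes were called between T1 and T2 watered leaf, fewer higher than lower at T2. With tissue as an additive term, 605 genes were called (edgeR quasi-likelihood test, adjusted p under 0.05), 3.32% of the 18226 rows tested. Of these, 236 genes were higher and 369 were lower at T2, which was 1.29% and 2.02% of the rows. Of the higher genes 181 differed by at least 2-fold and 13 by at least 8-fold, with a median log2 fold change of 1.28. Among the lower genes 328 differed by at least 2-fold and 62 by at least 8-fold, with a median of -1.7. The T1 and T2 libraries did not overlap in either tissue for 205 of the 236 higher and 279 of the 369 lower genes. Over all rows tested 513 (2.81%) were separated in this way as higher and 616 (3.38%) as lower. Calling genes on these same libraries favours such separation, so the counts are a description. The median over all rows tested was -0.0992.

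These calls depend on how the plants are counted. The fit takes vein and intervein libraries of a plant as separate samples, and its p-values are too small where plants differ. With the counts of vein and intervein of the same number summed as 1 plant, 3 plants against 3, there were 0 calls by edgeR (3053 genes had an unadjusted p under 0.05). Raw counts were summed, so the mix of tissues followed library depth. Total counts in vein and intervein were 6524988 and 2718799 for T2 1, and 9100229 and 13641845 for T2 2. The part of this uneven mix in the 0 calls was not tested. With the plant as a random block (limma voom, estimated correlation between the tissues of a plant 0.085), 462 genes were called, 403 of them among the 605. The labels do not state that equal numbers in vein and intervein mark 1 plant, so both of these fits assume it.

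Single libraries also moved the count of 605. It was 214, 231 and 985 without vein T1 1, 2 and 3, and 308, 205 and 211 without vein T2 1, 2 and 3. In intervein it was 201 without T1 2, and 343 and 247 without T2 1 and 2. With both tissues of a plant left out it was 153, 0 and 1206 without T1 plants 1, 2 and 3 and 90, 67 and 147 without T2 plants 1, 2 and 3. The 0 without T1 plant 2 stood beside 2616 genes at an unadjusted p under 0.05. Only vein T1 3, alone or as part of plant 3, raised the count beyond 1.5 times when left out.

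**Figure D1:**
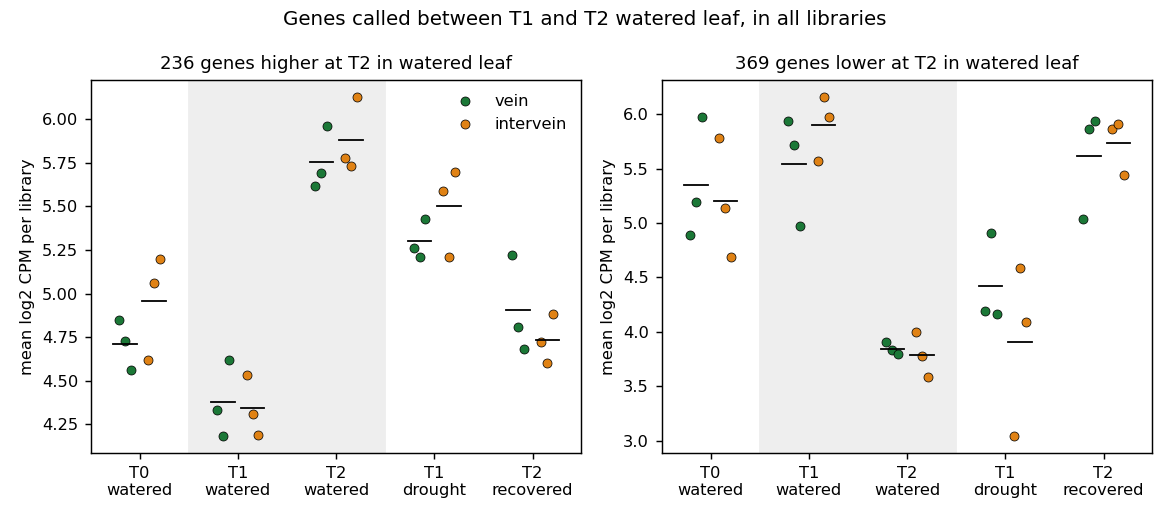
Each of the 30 libraries by group, with its mean log2 CPM over the 236 genes that rose (left) and the 369 that fell (right) from T1 to T2 in watered leaf, with vein in green, intervein in orange and group means as bars. Choosing the genes fixes the order of the shaded T1 and T2 watered groups. In the unshaded groups the T1 drought libraries lie towards T2 watered, and the T0 and T2 recovered libraries mostly towards T1 watered.

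The genes with the largest rises that separated the times in both tissues were of low abundance. Solyc05g007950 was at 1.1, 0.473 and 0 CPM in vein T1 1, 2 and 3 and at 13.8, 2.32 and 8.92 CPM in vein T2. In intervein it was at 0, 0.347 and 0.752 CPM at T1 and at 27.8, 2.19 and 25.3 CPM at T2. Every T2 library was above every T1 library of its tissue, and T2 2 was the lowest T2 library in both tissues. The ratio of means was 15.9 in vein and 50.3 in intervein (edgeR adjusted p = 0.0247 over both tissues). It was 35.2 in vein without T1 1, and in intervein it was 33.5 without T1 1 and 106 without T1 3, a ratio that rests on 3 counts at T1 (95% interval from counting error 36.3 to 514).

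Solyc01g104900 was at 0.783, 0.189 and 1.1 CPM in vein T1 and at 5.2, 6.95 and 11.6 CPM in vein T2. In intervein it had 0 counts in the 3 T1 libraries and was at 3.43, 1.52 and 5.92 CPM at T2. The difference was 11.5-fold in vein and at least 23.8-fold in intervein, against a floor of 3 counts over the T1 group (edgeR adjusted p = 0.0182 over both tissues). The bound was 15.3 without intervein T1 1 and 13.3 without intervein T1 2. At T0 this gene was at 21.7 CPM in vein 1 and had 0 counts in vein 2 and 3, so watered plants of 1 time also differed widely.

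Among the falls, Solyc10g074440 was at 18.5, 219 and 13.5 CPM in vein T1 and at 1.57, 0.623 and 0 CPM in vein T2. In intervein it was at 7.51, 16.4 and 17.3 CPM at T1 and had 0 counts in all 3 libraries at T2. The difference was 115-fold in vein and at least 120-fold in intervein (edgeR adjusted p = 0.00752 over both tissues). Vein T1 2 carried most of its vein level, and the vein ratio was 21.9 without that library, 269 without vein T2 1 and 76.3 without vein T2 3. The intervein bound was 51.1 without intervein T2 2.

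Solyc12g039070 was at 1.72, 51.8 and 1.6 CPM in vein T1 and at 0.725, 0 and 0 CPM in vein T2. In intervein it was at 0.851, 3.94 and 14.3 CPM at T1 and had 0 counts at T2. Its ratio of 76 in vein rests on vein T1 2 and was 6.87 without it, while the intervein bound of 55.6 was 20.9 without T1 3 and 23.6 without T2 2 (edgeR adjusted p = 0.0262 over both tissues). Both falling genes were thus highest in the same vein library, T1 2. With plants summed these 4 genes had edgeR adjusted p-values of 0.107, 0.119, 0.115 and 0.155, in the order given, and with the plant as a random block in limma only Solyc01g104900 kept its call.

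Single libraries also ended these calls. Solyc05g007950 lost its call without vein T1 2, vein T2 1, vein T2 3, intervein T1 2 or intervein T2 1 (edgeR adjusted p of 0.0532 to 0.0733). Solyc01g104900 lost it without vein T2 3 (adjusted p = 0.0573 by edgeR) and in the fits of all 30 libraries and of the 18 watered libraries (0.104 and 0.0703). Solyc10g074440 kept its call without any single library and lost it without T1 plant 2 or T2 plant 2 (edgeR adjusted p of 0.0692 and 0.0603). Solyc12g039070 lost it without vein T1 2 (0.136) and also without vein T2 1, 2 or 3 or intervein T1 2, T2 1 or T2 2, with edgeR adjusted p-values of 0.0544 to 0.0703. The other plants whose absence ended a call were T1 1, T1 2, T2 1 and T2 3 for Solyc05g007950, all but T1 3 for Solyc01g104900, and T1 2 and all T2 plants for Solyc12g039070, with adjusted p-values by edgeR of 0.0563 to 0.237. With the replicate number as a block Solyc12g039070 had an edgeR adjusted p of 0.0801.

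The tissues moved the same way for nearly every gene called. Of the 236 higher genes all 236, and of the 369 lower genes 368, had the same sign in vein and intervein, where the share over all rows tested was 66.7%. A gene called on both tissues together is favoured to agree in sign, so this share is a description. Over all rows tested the log2 fold changes of the tissues had a Pearson r of 0.378 and a Spearman rho of 0.458. Genes are not independent replicates, and the tissues share plants, so differences between plants add to this likeness. The median fall was -1.5 in vein and -1.84 in intervein for the lower genes, and the median rise was 1.18 in vein and 1.37 in intervein for the higher genes.

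**Figure D2:**
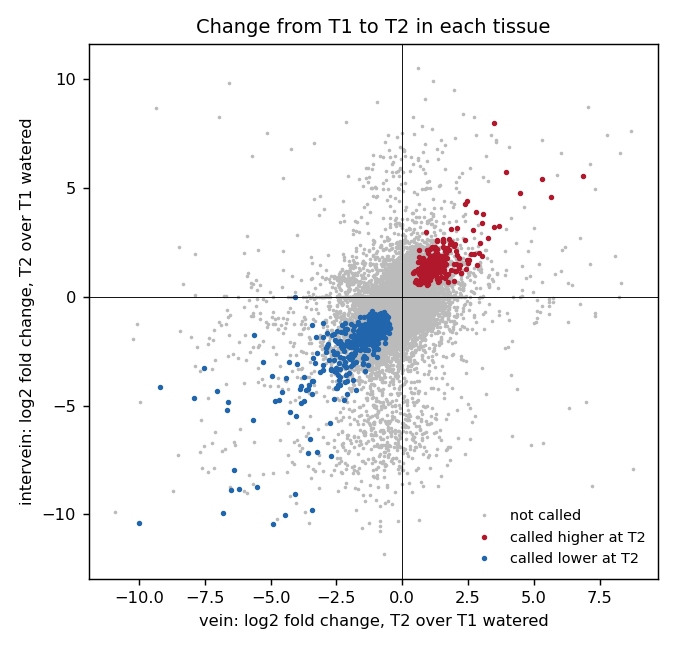
Log2 fold change from T1 to T2 in watered vein (horizontal) and intervein (vertical) for the 18226 rows tested, with genes called over both tissues in red (higher at T2) and blue (lower). All 236 red points lie at the upper right, above 0 on both axes, and 368 of the 369 blue points at the lower left.

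Taken alone, the tissues gave unequal numbers of calls. In vein 0 genes (0%) passed by edgeR, where 1559 had an unadjusted p under 0.05 and the smallest adjusted p was 0.119, and DESeq2 called 341. In intervein edgeR called 116 genes, 0.636% of the rows tested, 40 of them higher (0.219%) and 76 lower (0.417%). Of these 116 genes, 79 were also called over both tissues, 108 had the same sign in vein, and 73 had that sign with an unadjusted p under 0.05 in vein. The edgeR test of the difference between tissues passed 0 genes (0%), against 896 that had an unadjusted p under 0.05, 39 called by DESeq2 and 5 in a fit of the 18 watered libraries, which includes T0. The larger number in intervein is therefore not shown to be a difference between the tissues.

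The intervein count was less stable than that over both tissues. It was 0 without vein T1 1 or 2, vein T2 1 or 2, or intervein T1 2 (by edgeR, while 2803 to 3439 genes had an unadjusted p under 0.05), and 7 without vein T2 3 or intervein T2 3. It was 34 without intervein T2 2. Without vein T1 3 it was 226, and without intervein T1 1 and 3 it was 306 and 200. Vein libraries enter this count because all 12 libraries share 1 fit, with its filter, scaling and estimate of the spread. Which of these moved the count was not tested. Without plants T1 1, 2 and 3 it was 8, 0 and 527, and without plants T2 1, 2 and 3 it was 13, 3 and 0, where the counts of 0 stood beside 2512 and 2558 genes with an unadjusted p under 0.05.

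The genes nearest to a call in vein were more abundant than those with the largest changes. Solyc03g118470 was at 26.6, 19.8 and 18.6 CPM in vein T1 and at 179, 154 and 287 CPM in vein T2, a 9.56-fold difference with no overlap (edgeR adjusted p = 0.119 in vein alone). In intervein it went from 72.6, 57 and 32.1 CPM to 337, 216 and 493 CPM, a 6.47-fold difference, and over both tissues it was called with an adjusted p of 0.00448 by edgeR, the smallest of the comparison. At T0 it was at 162, 260 and 344 CPM in intervein, above every T1 library and overlapping T2. In vein T0 it was at 25, 97.3 and 237 CPM, with T0 1 inside the range of T1 and T0 3 inside that of T2.

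Solyc01g100230 fell over both tissues, with an edgeR adjusted p of 0.005 (0.119 in vein alone). In vein it was at 72.6, 42.9 and 33.4 CPM at T1 and at 3.38, 4.99 and 5.89 CPM at T2, which was 10.4-fold lower. In intervein it was at 50.2, 138 and 90 CPM at T1 and at 20.6, 7.29 and 13 CPM at T2, 6.81-fold lower. At T0 it was at 62.8, 110 and 56.9 CPM in intervein and at 11.6, 68.2 and 34.1 CPM in vein. Within each tissue every T2 library was below every T0 and T1 library, so here T2 was the time that stood apart. Without T1 plant 3, Solyc03g118470 and Solyc01g100230 passed in vein alone (edgeR adjusted p of 0.0374 and 0.0388).

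**Figure D3:**
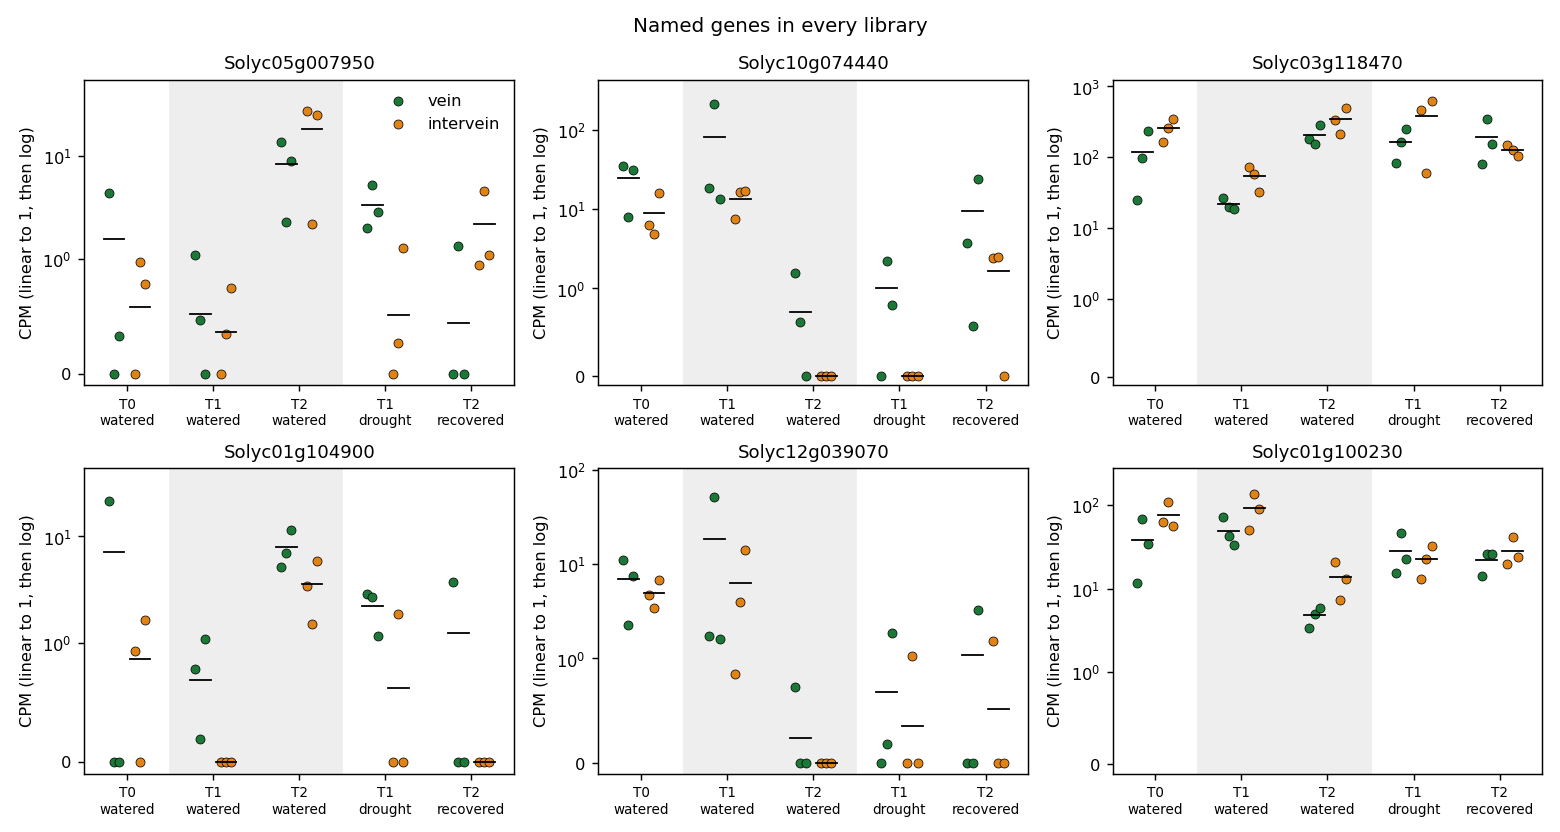
CPM in all 30 libraries, on an axis that is linear to 1 and logarithmic above, of the genes with the largest separated rises (left column) and falls (middle column) over both tissues and of the genes nearest to a call in vein (right column). Bars are group means, and the T1 and T2 watered groups are shaded. In intervein T2 both genes of the middle column are at 0 in all 3 libraries.

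In intervein the 4 genes chosen for the largest changes were at or near 0 at one of the times. Solyc02g085480 was at 7.8, 37.1 and 22.6 CPM at T1 and had 0 counts in the 3 T2 libraries, at least 196-fold lower, or 83.5-fold without intervein T2 2 (edgeR adjusted p = 0.0319 in intervein). In vein it was at 2.35, 3.79 and 2.2 CPM at T1 and 1.57, 0.801 and 0.478 CPM at T2. Solyc08g013900 was at 17.2, 24.2 and 13 CPM in intervein T1 and had 0 counts at T2, at least 159-fold lower, or 67.4-fold without intervein T2 2 (adjusted p = 0.0316 by edgeR). Its vein levels of 11.6, 5.97 and 2.4 CPM at T1 and 4.47, 3.65 and 3.03 CPM at T2 overlapped. It had the lowest p of the genes that fell less in vein than in intervein, and the difference between tissues was not called (edgeR adjusted p = 0.348, or 0.0178 in the fit of the 18 watered libraries).

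Solyc00g005094 had 0 counts in intervein T1 and was at 1.56, 5.77 and 5.54 CPM at T2, at least 28.1-fold higher (adjusted p = 0.0418 by edgeR in intervein), with bounds of 18.1 and 15.8 without T1 1 and T1 2. Its vein libraries overlapped, at 3.37, 5.3 and 18.9 CPM at T1 and 10.2, 8.37 and 17.7 CPM at T2. Solyc02g084850 was at 0.425, 1.27 and 0 CPM in intervein T1 and at 82.1, 63.6 and 468 CPM at T2, a ratio of 361 (adjusted p = 0.0481 by edgeR in intervein). That ratio was 129 without T2 3 and 962 without T1 2, the latter on 3 counts at T1 (95% interval from counting error 329 to 4670). In vein this gene was at 11.8, 36.2 and 254 CPM at T1 and 527, 212 and 1250 CPM at T2, which overlapped. In the drought plants it was at 13900, 12100 and 17600 CPM in vein T1 and at 6.55, 14600 and 19000 CPM in intervein T1, above every watered T2 library except for intervein T1 drought 1. Watered vein T0 2 was at 4250 CPM, also above every watered T2 library, while vein T0 1 and 3 were at 0.946 and 24.2 CPM.

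The 4 intervein calls were lost without vein T1 1, vein T1 2, vein T2 1, vein T2 2 or intervein T1 2, with edgeR adjusted p-values of 0.0552 to 0.164. Solyc00g005094 and Solyc02g084850 were also lost without vein T2 3, intervein T1 3, T2 2 or T2 3, Solyc02g084850 without intervein T1 1, and Solyc02g085480 without intervein T2 3, with values of 0.0503 to 0.0929 by edgeR. Without plants, each of these calls had an adjusted p of up to 0.193 to 0.225 (edgeR). Solyc00g005094 and Solyc02g084850 had edgeR adjusted p-values of 0.249 and 0.15 in the fit of all 30 libraries and of 0.101 and 0.141 in that of the 18 watered libraries.

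Solyc10g075110 had the lowest p of the genes that moved towards intervein, and it was not called (edgeR adjusted p = 0.348 for the difference between tissues). It was at 12.8, 22 and 5.77 CPM in intervein T1 and 135, 137 and 231 CPM in intervein T2, 12.4-fold higher. In vein it was at 91.9, 55.1 and 108 CPM at T1 and at 36.6, 37.1 and 78.3 CPM at T2.

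The other libraries place these changes. The mean log2 CPM of the 236 higher genes was 4.38 ± 0.224 (SD, n = 3) in vein T1 and 5.76 ± 0.18 in vein T2, and 4.34 ± 0.172 and 5.88 ± 0.218 in intervein, an order that choosing the genes sets. In T0 libraries, which took no part in that choice, it was 4.71 ± 0.146 in vein and 4.96 ± 0.303 in intervein, above the mean of T1 and below that of T2. The lower genes averaged 5.35 ± 0.557 and 5.2 ± 0.548 at T0, between 5.54 ± 0.509 and 3.85 ± 0.0569 at T1 and T2 in vein and between 5.9 ± 0.301 and 3.79 ± 0.205 in intervein. Gene by gene, the T0 level (mean over tissues of log2 CPM) was nearer T1 than T2 for 169 of the 236 higher and 319 of the 369 lower genes. It lay between the times for 197 and 309 of them. Choosing genes whose T1 and T2 levels lie far apart favours such a place, and the share over all rows was not computed.

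For most of the genes called, drought leaf at T1 lay nearer the T2 controls than the T1 controls. Its higher genes averaged 5.3 ± 0.115 (SD, n = 3) in vein and 5.5 ± 0.257 in intervein, and its lower genes 4.42 ± 0.425 and 3.91 ± 0.791. The level under drought was nearer T2 watered than T1 watered for 161 of 236 higher and 251 of 369 lower genes, and it went beyond T2 watered for 55 and 125. Intervein T1 drought 1 had the fewest genes detected of the 30 libraries (13740), with 12.2% of its counts in ENSRNA rows (non-coding RNA models). Its lower genes averaged 3.04, against 4.59 and 4.09 in intervein T1 drought 2 and 3. The counts under drought were not repeated without this library. Recovered leaf at T2 lay the other way, nearer T1 watered for 172 and 305 genes and beyond it for 87 and 201. In the recovered plants the higher genes averaged 4.9 ± 0.282 in vein and 4.73 ± 0.14 in intervein. Without both libraries out of place, recovered leaf was nearer T1 watered for 163 and 312 genes and beyond it for 74 and 185, and its higher genes averaged 4.95 ± 0.382 (SD, n = 2) in vein and 4.74 ± 0.198 in intervein. These counts describe the genes chosen and carry no test. They too have no share over all rows beside them, and the choice of genes on the T1 and T2 controls bears on them.

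Over the same interval the drought plants moved in the opposite direction for most of the genes called. In the comparison of T2 recovered with T1 drought, which shares no library with the watered one, edgeR called 1594 genes, 8.79% of 18139 rows, with 897 higher (4.95%) and 697 lower (3.84%). This fit too takes both tissues of a plant as separate samples, so its p-values are too small where plants differ. Of the 236 genes that rose in watered leaf, 184 had a lower sign in the drought plants, and 37 were called lower against 2 called higher. Among the 369 that fell, 366 were tested there, 333 had a higher sign, and 137 were called higher against 2 called lower. The 174 genes called in opposite directions were 28.8% of the watered calls and 10.9% of the drought-plant calls, and 4 genes were called in the same direction. Opposite signs made up 85.9% of the watered calls tested and 66.1% of all rows tested in both.

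The median log2 fold change in the drought plants was -0.55 for the genes that rose and 1.4 for those that fell in watered leaf, against 0.0262 over all rows tested there. Without both recovered libraries out of place the medians were -0.56 and 1.17, and the opposite calls numbered 87 against 3 in the same direction. Leaving out a watered library brought the 174 to 68, 73 and 91 without vein T1 1, vein T1 2 and vein T2 1. It was 67 and 69 without vein T2 2 and 3, 62 without intervein T1 2, and 96 and 73 without intervein T2 1 and 2. Among the drought plants, vein T1 drought 1 and 3 and vein T2 recovered 3 gave 86, 96 and 103 when left out, and intervein T1 drought 2 and 3 and intervein T2 recovered 2 gave 112, 94 and 101. Without T1 watered plants 1, 2 and 3 it was 49, 0 and 293, without T2 watered plants 1, 2 and 3 it was 25, 15 and 45, and with plants summed it was 0, since the watered comparison then had no calls.

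**Figure D4:**
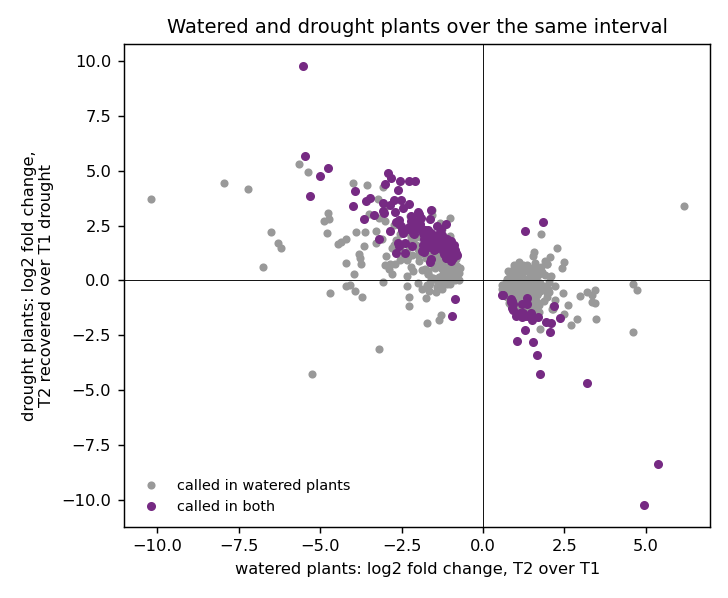
Log2 fold change over the interval in watered plants (T2 watered over T1 watered, horizontal) and in drought plants (T2 recovered over T1 drought, vertical) for the genes called in watered leaf, with the genes called in both comparisons in purple. The 174 purple points of opposite sign lie upper left and lower right, and 4 lie at the upper right or lower left.

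The difference between the changes of watered and drought plants was tested over the 24 libraries of T1 and T2, a contrast added after these values were seen. edgeR called 3806 genes, 19.9% of 19135 rows, of which 1508 (7.88%) rose more or fell less in watered plants and 2298 (12%) rose less or fell more. Of the 605 genes called in watered leaf 490 were called here, all 490 with the sign of the watered change, which the shared watered libraries favour. The count was 3299 without both recovered libraries out of place. The fit again takes vein and intervein libraries of a plant as separate samples, so its p-values are too small where plants differ. No fit of this contrast with plants summed or as a random block was run.

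The strongest genes of the drought plants had uneven levels in the controls. Solyc08g077900 had 0 counts in all 6 recovered libraries and was at 1220, 769 and 670 CPM in vein T1 drought and 2.58, 612 and 303 CPM in intervein T1 drought. In watered vein it was at 0.235, 0 and 2.9 CPM at T1 and at 0.846, 7.93 and 192 CPM at T2, and in watered intervein it had 0 counts at T1 and 0, 0 and 3.9 CPM at T2. The high T2 level was thus that of replicate 3 in each tissue, and this gene was not called between the watered times (edgeR adjusted p = 0.0797). Solyc03g019820, the other of the largest falls after rewatering, had 0 counts in the 6 watered T1 libraries and was at 0.967 CPM in vein T2 1 and 23.4 CPM in intervein T2 3, and it was filtered out of the watered test. Solyc01g095770 and Solyc10g086520 rose from 0 counts in all 6 T1 drought libraries. In watered leaf they were not called, with edgeR adjusted p-values of 0.228 and 0.63.

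Groups of genes chosen on other libraries were read in the watered comparison. Genes called between T1 drought and T0 (tissue additive, none of the T1 or T2 watered libraries used) numbered 476, 2.63% of 18114 rows, with 225 higher under drought (1.24%) and 251 lower (1.39%). T0 and T1 differ in age too, so drought and age cannot be told apart in these lists. Of the 197 drought-higher genes tested in watered leaf, 15 rose from T1 to T2 and 0 fell, 7.61% against 1.29% of all rows, with a median log2 fold change of 0.565. Of the 249 drought-lower genes tested, 36 fell and 0 rose, 14.5% against 2.02% of all rows, with a median of -0.949. The medians were 0.474 and -0.818 in vein and 0.604 and -0.962 in intervein, against -0.0274 and -0.15 over all rows. With the lists chosen without vein T0 2 and vein T1 drought 2, the medians were 0.755 and -1.18, with 9 of 127 genes called higher and 36 of 200 called lower. Genes called lower after recovery (652 tested) had a median of 0.405 in watered leaf, with 81.4% above 0, and those called higher after recovery (891 tested) had a median of -0.92, with 88% below 0, where 43.8% of all rows were above and 56.2% below. With these lists chosen without both recovered libraries out of place, the medians were 0.387 (381 tested) and -0.903 (510 tested). The recovery lists come from the comparison already set beside the watered one above, so their values restate it. They also share the T1 drought libraries with the lists of drought against T0.

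A score of these lists shows the size of the shift by library (mean log2 CPM of the drought-higher genes minus that of the drought-lower genes). It was -2.71, -2.83 and -1.81 in vein T1 1, 2 and 3 and -1.47, -1.05 and -0.188 in vein T2. In intervein it was -1.13, -2.03 and -3.01 at T1 and -0.797, -0.114 and 0.256 at T2. Every T2 library was above every T1 library of its tissue, and T2 3 was the highest in both. The T1 drought libraries, which helped to choose the lists, lay at 2.17 to 3.78, above every watered T2 library. Recovered libraries had scores of -2.6 to -1.02, a range that took in vein T2 1 and vein T2 2. Its upper end was vein T2 recovered 2, and without both libraries out of place it was -2.6 to -1.29, which took in vein T2 1 alone.

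Genes that marked the tissues at T0 numbered 1551, 9.21% of 16845 rows. Of the 699 vein-preferred genes, 4.15% of rows, 696 were tested, and 2 rose (0.287%) and 21 fell (3.02%), against 1.29% and 2.02% of all rows, with a median of -0.424. Of the 852 intervein-preferred genes, 5.06% of rows, 844 were tested, and 6 rose (0.711%) and 12 fell (1.42%), with a median of -0.278. This median was -0.114 without intervein T1 3, -0.0444 without T1 plant 3, -0.117 with plants summed and -0.068 without both intervein replicates 3, near the -0.0992 of all rows. Each list had the lower median in the tissue that it marks, at -0.473 in vein and -0.225 in intervein for the vein-preferred genes, and at 0.0341 in vein and -0.53 in intervein for the intervein-preferred genes. In these bulk samples fewer cells of a type and less RNA per cell cannot be told apart.

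**Figure D5:**
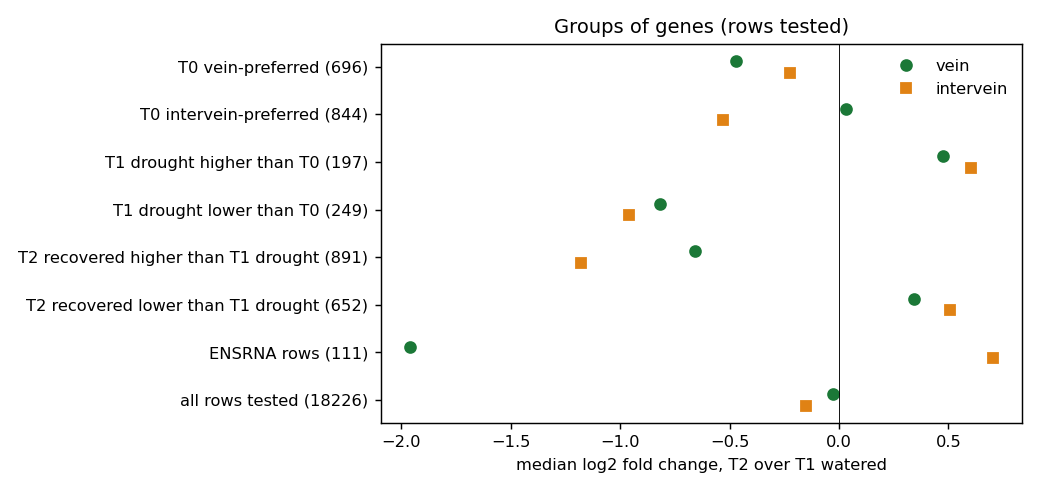
Median log2 fold change from T1 to T2 in watered vein (circles) and intervein (squares) for groups of genes chosen on other libraries, with the number of rows tested in brackets and all rows tested at the bottom. Both groups that were higher in T1 drought lie right of 0 in both tissues, and both groups that were lower in T1 drought lie left of 0. The groups of each pair were chosen with the same T1 drought libraries.

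Rows of non-coding RNA models (identifiers with the ENSRNA prefix) went opposite ways in the tissues without being called. They took 5.46%, 2.17% and 4.97% of the counts in vein T1 1, 2 and 3 and 1.05%, 0.761% and 1.46% in vein T2, with no overlap. In intervein they took 0.917%, 0.817% and 1.56% at T1 and 1.76%, 1.28% and 4.77% at T2, where the ranges overlap. The two-sided exact permutation p was 0.1 in vein, the smallest that 3 libraries against 3 allow, and 0.2 in intervein, and both were 0.4 after Benjamini-Hochberg adjustment over 8 tests of library measures. Of 111 such rows tested, 0 were called over both tissues, with medians of -1.96 in vein and 0.705 in intervein. The part of this share in the calls of other genes was not tested, and the 605 calls became 613 with these rows left out.

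The genes called were spread over the genome as the identifiers number it. The Solyc identifiers carry a chromosome number, and the share called higher was 0.939% to 1.58% and the share called lower 1.46% to 2.73% on chromosomes 1 to 12. Some lay side by side. Of the 236 higher genes 20 had a neighbour in identifier order that was also called higher, 8.47% against 2.6% of all tested genes, and of the 369 lower genes 27 had one called lower, 7.32% against 4.02%. Neighbours can be copies of 1 gene whose reads the counting may split, which the files do not show.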

How the data were processed

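The members, lists and tests were chosen with earlier results of these data known. Per the file headers, the authors deposited raw whole-number counts per gene and library, exported by KBase. HISAT2 2.1.0 and StringTie 1.3.3b are named per the submitters' processing notes, as are FastQC 0.11.5 and DESeq2 1.20.0, none with a stated role. Not given in the sources used here: the build, the annotation and the handling of reads that fit several genes. Libraries were stranded and read as single reads of 75 nt, per the labels' protocols, and no batch per library is given.

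Of 35596 rows, 18226 passed filterByExpr on the 12 watered libraries (99.9% of counts). Counts were scaled by TMM and tested in edgeR 4.0.16 (R 4.3.3) by glmQLFit and glmQLFTest, two-sided, with tissue and time as terms (9 residual degrees of freedom) or 1 coefficient per group (8), and Benjamini-Hochberg adjustment over all rows. The procedure was tested on simulated data, drawn independently for each library with no effect shared by the tissues of a plant. That test therefore cannot check the p-values where plants differ. CPM and log2 CPM (prior count 2) use all 30 libraries. DESeq2 1.42.0 and limma 3.58.1 served as alternatives. Named genes were the 2 largest rises and 2 largest falls of each comparison among genes called, at 1 CPM or more on average and without overlap, or the gene with the lowest p in each direction where none was called. Lists on gene descriptions could not be applied, since the reference table (assembly SLM_r2.1, 41476 genes) matched 0 identifiers. A fold against a group at 0 counts throughout is a bound computed with 3 counts over that group, and bounds and intervals cover counting error only. Replicates are separate plants, per the labels' protocols.

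The 2 libraries of watered leaf most alike had a correlation of log2 CPM of 0.942, and none was a duplicate by value.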

Additional observations from a re-analysis of the deposited data

Results flagged for a closer look

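The change from T1 to T2 differed between watered and drought plants for 3806 genes in a direct test of the difference (edgeR, 24 libraries, adjusted p under 0.05). All 4 genes with the largest separated changes in watered leaf were among them. These 4 were chosen on the watered libraries that enter this contrast, which favours their call. None of the 4 was called in the drought plants alone, with edgeR adjusted p-values of 0.906, 0.434, 0.088 and 0.857 in the order below. Both tissues of a plant entered as separate samples, and no fit with plants summed or as a random block was run for this contrast. The fitted log2 difference, watered minus drought plants, was 5.3 for Solyc05g007950 (edgeR adjusted p = 0.0209) and 8.88 for Solyc01g104900 (0.00835). It was -13.4 for Solyc10g074440 (0.000903) and -8.17 for Solyc12g039070 (0.03). Several of these groups are at 0 counts, so these fitted values depend on the prior count and give a direction rather than a size.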

How the results depend on the processing

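The number of genes called moved with the test and with the samples. DESeq2 called 2173 genes over both tissues, 602 of them among the 605 of edgeR, and 341 in vein, 1776 in intervein, 39 for the tissue difference, 3560 in the drought plants and 758 in opposite directions. With all 30 libraries in 1 fit the counts were 387 over both tissues, 36 in intervein and 3084 in the drought plants, and with the 18 watered libraries 66 in intervein and 5 for the tissue difference. Summing the tissues of a plant gave 0 calls over both tissues and 0 in opposite directions. Without both recovered libraries out of place the drought plants had 916 calls and 87 genes were called in opposite directions. Other scalings and filters and leaving out ENSRNA rows kept every count of the 4 watered comparisons within 1.5 times (597 with RLE scaling, 514 to 626 with other filters over both tissues). Without both intervein libraries at the ends of the second principal component, chosen after seeing the data, 700 genes were called.

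With 1 library or 1 watered plant left out, counts ranged from 0 to 1206 over both tissues, 0 to 62 in vein and 0 to 527 in intervein. The range was 0 to 293 for opposite directions. With single libraries but no whole plants left out, counts were 0 to 3 for the tissue difference and 704 to 2199 in the drought plants. They were 3012 to 3986 for the difference of changes, also without single libraries only. No named gene changed sign in the comparison that chose it under these alternatives, and all medians of gene groups moved by less than 1 SD between libraries.

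With the replicate number as a block, 482 genes were called over both tissues, 68 in intervein, 0 in vein and 0 for the tissue difference, 1435 in the drought plants, 3653 for the difference of changes and 119 in opposite directions. Same-numbered T1 and T2 libraries are different plants, and their deviations correlated at -0.0834 to 0.155. Across these times 5 of 6 vein and 2 of 6 intervein libraries correlated best with their own number. Vein and intervein libraries of the same number and time correlated at 0.0389 to 0.201, with 4 of 6 best with their own number at T1 and 4 of 6 at T2. These ranges overlap, and whether libraries of the same number share an effect was not tested. The shallowest library, intervein T2 1, limits the detection of low genes.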
